A study of Homo sapiens with 12 samples.

Results

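TP53I3, TIGAR and GPX1 are genes of redox metabolism that p53 is known to control, and their transcripts are described here in 3 human colorectal cancer cell lines given Nutlin-3a. The genes were chosen by symbol, as the probe sets of the deposited table that carry these names. Each symbol had 1 probe set (16895179 for TP53I3, 16747004 for TIGAR and 16954048 for GPX1), so all 3 genes were measured, out of 14118 genes with a named probe set. Each of 12 RNA samples was read on its own whole-transcript Affymetrix array. The groups were HCT116 cells with Nutlin-3a, untreated HCT116 cells, SW48 cells with Nutlin-3a, untreated SW48 cells, RKO cells with Nutlin-3a and untreated RKO cells, with 2 arrays in each group. Nutlin-3a, a small molecule that keeps MDM2 from binding p53 and so stabilizes p53, was given at 10 µM for 8 h. All 3 lines are labelled wild type for p53, so no group lacks it, and untreated cells received no vehicle that the labels name. The labels do not say whether duplicates came from separate cultures, so a p-value here reflects only how far these samples scatter, which may be technical. In these bulk samples, fewer cells of a kind and less RNA per cell cannot be told apart.

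The 3 proteins handle oxidants in different ways. TP53I3, also named PIG3, is an NADPH-dependent enzyme related to quinone oxidoreductases and has been linked to the oxidative burst that precedes p53-dependent cell death. TIGAR is a phosphatase that lowers the fructose bisphosphate that stimulates glycolysis, which turns glucose towards the pentose phosphate pathway and its NADPH, the reductant that keeps glutathione reduced. GPX1 is a selenium-containing peroxidase that uses glutathione to destroy hydrogen peroxide.

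The 250 bases before each RefSeq start are shown because transcripts of the 3 genes were all higher with Nutlin-3a on average, and p53 acts on DNA near its targets. They are from RefSeq on GRCh38.p14, read 5′ to 3′ on the strand of the gene. The windows are chr2:24084835-24085084 on the minus strand for TP53I3, chr12:4320963-4321212 on the plus strand for TIGAR and chr3:49358354-49358603 on the minus strand for GPX1. On that build RefSeq places TP53I3 at chr2:24077433-24084834, TIGAR at chr12:4321213-4360028 and GPX1 at chr3:49357176-49358353; the deposited values name no build. Capitals mark matches to the motifs searched.
TP53I3: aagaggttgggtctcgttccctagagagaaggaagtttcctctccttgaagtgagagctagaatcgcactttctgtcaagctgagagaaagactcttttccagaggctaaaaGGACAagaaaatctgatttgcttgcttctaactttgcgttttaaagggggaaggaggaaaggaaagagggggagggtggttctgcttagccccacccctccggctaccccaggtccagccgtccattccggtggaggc
TIGAR: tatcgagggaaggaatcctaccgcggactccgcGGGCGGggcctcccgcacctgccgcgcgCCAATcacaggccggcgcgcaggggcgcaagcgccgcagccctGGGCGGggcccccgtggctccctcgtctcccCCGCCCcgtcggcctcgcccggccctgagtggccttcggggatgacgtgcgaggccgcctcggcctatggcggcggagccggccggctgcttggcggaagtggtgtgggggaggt
GPX1: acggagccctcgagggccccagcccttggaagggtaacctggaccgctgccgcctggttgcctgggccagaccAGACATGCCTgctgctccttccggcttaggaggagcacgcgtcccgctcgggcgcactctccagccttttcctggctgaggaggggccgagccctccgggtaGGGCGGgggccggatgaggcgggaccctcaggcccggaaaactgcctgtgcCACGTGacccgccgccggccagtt

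Both strands were searched for the p53 consensus half-site without mismatch, TGTCC and TGCCC (the units of a repeat through which p53 is known to act near human TP53I3), CACGTG (bound by MYC and USF proteins), TGACNNNGC (the core bound by the oxidant sensor NRF2), CCAAT and GGGCGG (bound by NF-Y and by SP1). GPX1 held 1 p53 half-site, in the first run of capitals, 177 to 168 bases before its start, a match found in 5.57% of 35116 RefSeq windows of the same length. TP53I3 and TIGAR held 0 such matches in these windows. The GPX1 window also held CACGTG at 24 to 19 bases before the start, present in 6.34% of windows, and 1 GGGCGG. The TIGAR window held 3 GGGCGG, present in 42.6% of windows, and 1 CCAAT, present in 32%. The TP53I3 window held a single TGTCC, on the opposite strand, which 37.8% of windows hold, and none of the 3 held TGCCC or TGACNNNGC. The marked matches do not overlap. G and C made up 51.2% of the TP53I3 window, 76.8% of that of TIGAR and 70.8% of that of GPX1, against a median of 58% over all windows. A match describes the letters and is no evidence of binding. Only bases before the start were searched, so 0 matches does not tell of sites elsewhere or with a mismatch.

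Values are the authors' deposited log2 expression values, on which a difference of 1 is a doubling. Differences were tested with limma in 1 model of the 6 group means over all 14118 genes, and a gene was called at a Benjamini-Hochberg adjusted p under 0.05. Errors of levels are SD over 2 arrays, and errors of differences are standard errors of the model. Levels of different probe sets are not comparable, so each gene is set only against itself. The 2 arrays of a group correlated at 0.996 to 0.997, and the median gap between them was 0.090 to 0.10. Of the epithelial markers checked, 9 of 12 were measured, and their summed level was 11.94 to 12.15 in HCT116 and SW48 arrays and 9.37 to 9.51 in RKO arrays. The labels' extraction text speaks of thyroids, so thyroid markers were checked too. Of these, 6 of 9 were measured, none had a group mean above 6.24, and their summed level was 7.62 to 7.96 on all arrays. The table's median value was 5.01, and the thyroid markers TG, PAX8 and NKX2-1 lay above it in every group. Of 7 immune markers 3 were measured, and CD68 and CD8A lay above the median in every group. The summed level of the 3 measured genes was 8.89 to 9.11 in HCT116 and SW48 arrays and 10.57 to 10.67 in RKO arrays. The highest of the 3 averaged 10.54 in untreated and 10.56 in treated RKO cells, so 1 gene carried most of the RKO sum. The fibroblast and endothelial lists, with 3 genes measured in each, summed to 6.01 to 6.42 and 6.49 to 7.96. Sums of different lists pool different probe sets and are not comparable. Of all marker genes measured, THY1, a fibroblast and lymphocyte surface protein, was the single one called with Nutlin-3a, in HCT116 (-0.32, adjusted p = 0.0289).

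TP53I3 rose with Nutlin-3a in every line, most in HCT116. In HCT116 it stood at 9.80 and 9.65 with Nutlin-3a, against 7.59 and 7.46 in untreated cells. This is a 4.59-fold rise (95% interval 3.96 to 5.30, adjusted p = 2.55e-06), the third largest of 14118 genes in that line. In SW48 the arrays read 9.54 and 9.76 with Nutlin-3a and 8.52 and 8.57 in untreated cells. The rise there was 2.15-fold (1.86 to 2.48, adjusted p = 0.00015) and ranked 20 among rises. In RKO they read 9.82 and 9.81 with Nutlin-3a, against 8.35 and 8.51 in untreated cells. That was a 2.60-fold rise (2.25 to 3.01, adjusted p = 7.79e-05) and ranked 9. In each line both treated arrays lay above both untreated ones, and the gap was several times the distance between duplicates.

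TIGAR rose by slightly more than 2-fold in each line. In HCT116 its values were 9.80 and 9.77 with Nutlin-3a, against 8.59 and 8.61 in untreated cells, a 2.26-fold rise (95% interval 2.01 to 2.55, adjusted p = 2.84e-05). In SW48 they were 9.57 and 9.59 with Nutlin-3a and 8.62 and 8.39 in untreated cells, where the untreated duplicates lay 0.23 apart; the rise was 2.11-fold (1.87 to 2.38, adjusted p = 6.08e-05). In RKO they were 10.60 and 10.49 with Nutlin-3a, against 9.33 and 9.30 in untreated cells, a 2.35-fold rise (2.08 to 2.65, adjusted p = 5.91e-05). In all 3 lines both treated arrays lay above both untreated ones. By size the rise ranked 23 in HCT116, 23 in SW48 and 13 in RKO.

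GPX1 moved least. In HCT116 it stood at 9.004 and 8.833 with Nutlin-3a, against 8.384 and 8.410 in untreated cells, a 1.44-fold rise (1.28 to 1.61, adjusted p = 0.00304; 0.0556 with HCT116 fitted alone). In SW48 the values were 8.76 and 8.86 with Nutlin-3a and 8.51 and 8.41 in untreated cells, a 1.27-fold rise (1.13 to 1.42, adjusted p = 0.0348). That call was lost when any array but the 2 of treated HCT116 cells was left out (adjusted p up to 0.188), and with each array centred on its median (0.056). In RKO they were 8.84 and 8.87 with Nutlin-3a, against 8.65 and 8.61 in untreated cells; both treated arrays lay above both untreated ones, but the 1.16-fold difference (1.04 to 1.30) did not pass (adjusted p = 0.168).

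**Figure D1:**
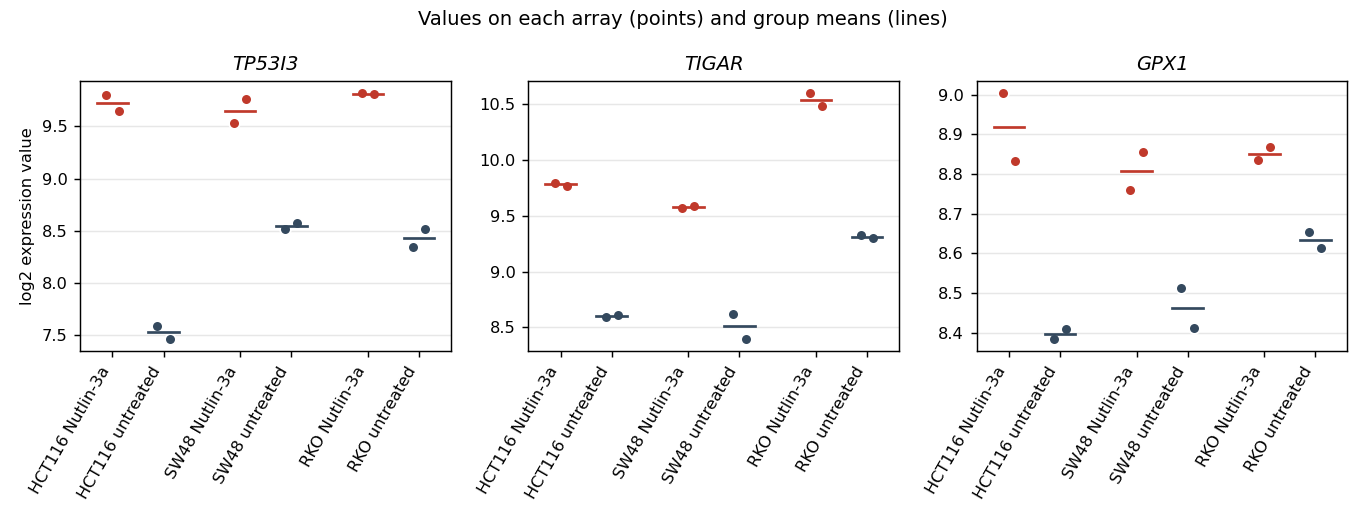
Log2 expression values of TP53I3, TIGAR and GPX1 on each of the 12 arrays (points), with the mean of each group of 2 (lines), for Nutlin-3a and untreated cells of each line; each panel has its own scale. The treated TP53I3 groups sit at similar heights, between means of 9.65 and 9.81, while untreated HCT116 lies lowest at 7.53.

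Across lines, TP53I3 and TIGAR were called higher in all 3, as were 0.545% of the genes tested. Of the genes tested, 3.08% were called higher in HCT116, 1.38% in SW48 and 1.23% in RKO; of the 3 redox genes it was 3, 3 and 2. Averaged over the lines with equal weight, the log2 rise was 1.56 ± 0.054 for TP53I3 (adjusted p = 1.76e-07), 1.16 ± 0.045 for TIGAR (3.00e-07) and 0.36 ± 0.042 for GPX1 (0.000515), and 4.33% of genes were called higher. In an exact two-sided permutation test of each average, treatment labels were exchanged within a line over 216 arrangements. The p was 0.00926 for each gene, which is the smallest this design can give. It follows from the treated arrays lying above the untreated ones in each line and adds nothing to that. The share of all genes that reach it was not counted.

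**Figure D2:**
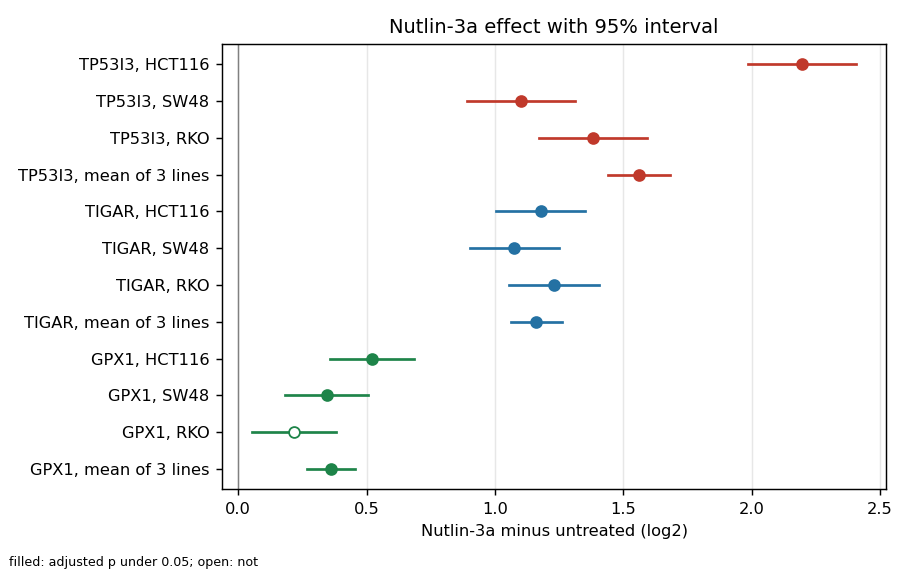
Nutlin-3a minus untreated on the log2 scale for each gene and line and for the mean of 3 lines, with 95% intervals from the model; filled points have an adjusted p under 0.05. The TIGAR intervals of the 3 lines overlap around 1.16, the TP53I3 interval of HCT116 lies apart from those of SW48 and RKO, and the GPX1 point of RKO is open.

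The size of the response differed between lines for TP53I3. The 3 effects were unequal by an F test in the same model (adjusted p = 0.0194; 0.503% of genes passed). The effect was smaller in SW48 than in HCT116, with a log2 difference of -1.09 ± 0.13 (adjusted p = 0.0186; 0.212% of all genes were called in this comparison and 0.127% were called lower). It was also smaller in RKO than in HCT116, by a log2 difference of -0.82 ± 0.13, but this call was marginal (adjusted p = 0.0499; 0.248% of all genes called, 0.163% lower) and was lost when any 1 of the 12 arrays was left out (0.0648 to 0.142). The call of SW48 against HCT116 was lost without untreated HCT116 array 2, treated HCT116 array 1, treated SW48 array 1 or either untreated SW48 array (highest adjusted p 0.0864). RKO minus SW48 was 0.28 (95% interval -0.019 to 0.58), which did not pass (adjusted p = 0.489; 0.361% of genes were called).

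Levels before and after treatment show where that difference lay. Untreated TP53I3 averaged 8.55 ± 0.041 in SW48 and 8.43 ± 0.12 in RKO, against 7.53 ± 0.089 in HCT116. It was 2.03-fold higher in untreated SW48 than in untreated HCT116 (adjusted p = 9.32e-06) and 1.87-fold higher in untreated RKO than in untreated HCT116 (2.74e-05). Such calls are common between these lines, since 22.7% and 22.4% of all genes were called higher in the same comparisons. With Nutlin-3a the means were 9.65 ± 0.16 in SW48, 9.81 ± 0.0079 in RKO and 9.72 ± 0.11 in HCT116 (SD, n = 2 each). The treated levels of the lines, a comparison added after the values were seen, differed by -0.073 (95% interval -0.28 to 0.14) for SW48 minus HCT116, 0.090 (-0.12 to 0.30) for RKO minus HCT116 and 0.16 (-0.047 to 0.37) for RKO minus SW48, and none passed (adjusted p of 0.194 and above). From low to high the order was untreated HCT116, untreated RKO, untreated SW48, treated SW48, treated HCT116 and treated RKO. Neighbours within the untreated RKO and SW48 pair and among the 3 treated groups did not differ by the test.

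TIGAR kept an offset between the lines instead. Untreated RKO cells averaged 9.31 ± 0.020, against 8.51 ± 0.16 in SW48 and 8.60 ± 0.015 in HCT116. They exceeded untreated SW48 1.75-fold (adjusted p = 1.34e-05) and untreated HCT116 1.63-fold (4.15e-05), in comparisons where 23.6% and 22.4% of genes were called higher. Treated RKO cells, at 10.54 ± 0.080, exceeded treated SW48 cells, at 9.58 ± 0.015, 1.95-fold (adjusted p = 3.69e-06) and treated HCT116 cells, at 9.78 ± 0.023, 1.70-fold (adjusted p = 2.43e-05). In those comparisons of treated cells 24% and 22.7% of genes were called higher. The Nutlin-3a effects themselves were not distinguished between lines. The differences of effect were -0.10 (95% interval -0.35 to 0.14) for SW48 minus HCT116, 0.053 (-0.19 to 0.30) for RKO minus HCT116 and 0.16 (-0.090 to 0.40) for RKO minus SW48, with an F test adjusted p of 0.69. In order of level, untreated SW48 and untreated HCT116 overlapped at the low end, followed by untreated RKO, treated SW48, treated HCT116 and treated RKO; treated SW48 minus treated HCT116 was -0.20, which did not pass (adjusted p = 0.0594). It did pass in 3 other settings (adjusted p down to 0.0179) and without either untreated SW48 array (0.0244).

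GPX1 spanned the narrowest range. Its group means were 8.81 ± 0.068 in treated SW48, 8.85 ± 0.023 in treated RKO and 8.92 ± 0.12 in treated HCT116, and the arrays of neighbouring groups in this order overlapped. Untreated means were 8.46 ± 0.071 in SW48, 8.63 ± 0.028 in RKO and 8.40 ± 0.018 in HCT116. Untreated RKO exceeded untreated HCT116 1.18-fold (adjusted p = 0.0245), a call lost without any 1 of the 4 untreated arrays of those lines (0.061 to 0.108), and the other untreated pairs did not pass. The effect in RKO minus that in HCT116 was -0.30 (95% interval -0.53 to -0.074), with an adjusted p of 0.292, and the F test of equal effects had an adjusted p of 0.334. Treated levels did not differ by the test, with intervals between -0.27 and 0.21 over the 3 pairs.

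**Figure D3:**
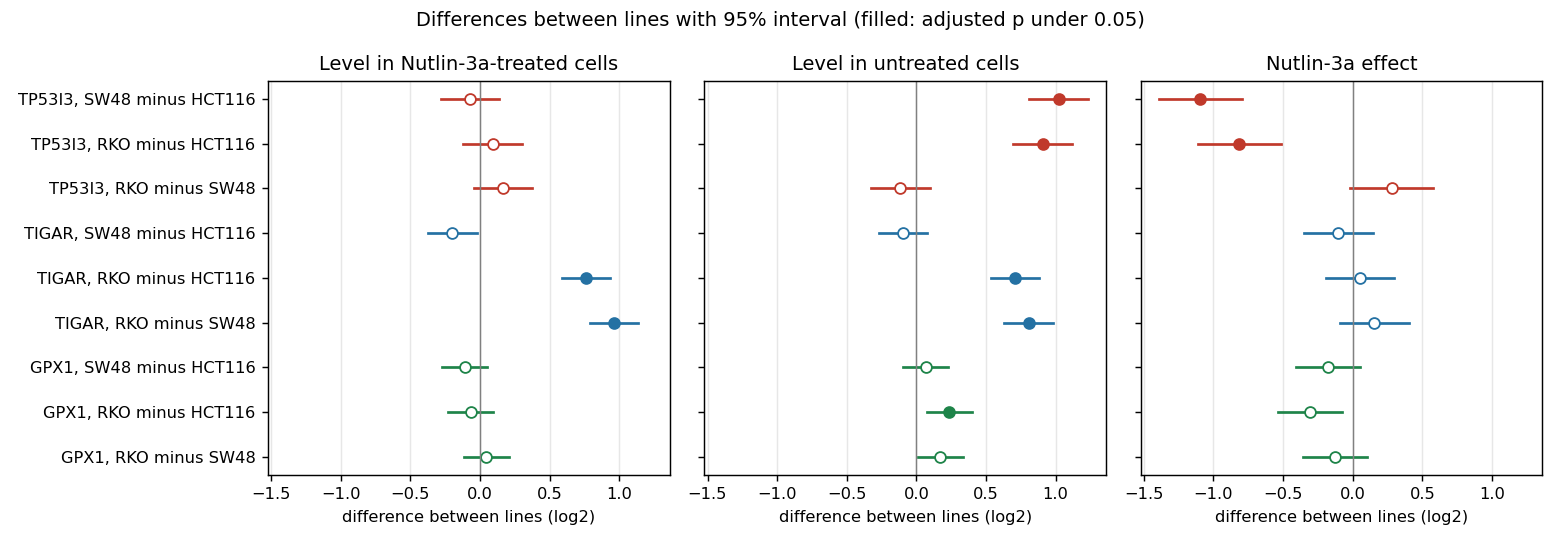
Differences between lines on the log2 scale, with 95% intervals, in the level of treated cells (left), the level of untreated cells (middle) and the Nutlin-3a effect (right); filled points have an adjusted p under 0.05. TP53I3 differs from HCT116 in the middle and right panels and not in the left one, whereas TIGAR is higher in RKO in the left and middle panels, with effects near 0 difference.

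The nearest measured genes on each side of the 3 loci did not pass the test in any line, though most were distant. On GRCh38.p14 these were WDCP and ITSN2 for TP53I3, 30042 and 118030 bases away. For TIGAR they were CCND2 and FGF23, 15860 and 8199 bases away. For GPX1 they were USP4, 17123 bases away, and RHOA. RHOA, a small GTPase gene whose end lies 792 bases from GPX1, differed by -0.032, -0.0020 and 0.051 in HCT116, SW48 and RKO (adjusted p of 0.733 and above). The largest value was that of ITSN2 in HCT116, 0.23 ± 0.065 (adjusted p = 0.0771). RefSeq places FAM228B across TP53I3 and the pseudogene RPS15P7 across TIGAR; neither had a named probe set.

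The other redox and metabolic genes linked to p53 were a mixture of strong responders and genes that did not pass. Their list, like those below, was chosen with earlier results of these data known. Its counts and medians are therefore not independent of that choice. Of 16 listed, 11 were measured; 5 rose in HCT116, 4 in SW48 and 4 in RKO, and 0 fell, with medians of 0.38, 0.31 and 0.16 against -0.011, -0.013 and -0.0068 over all genes (5.11%, 3.12% and 2.02% of genes were called in either direction). The same 4 rose in each line: TP53INP1, a p53 cofactor in stress and autophagy, the sestrin genes SESN1 and SESN2, whose products restrain mTORC1 and limit peroxides, and DDIT4, an mTORC1 inhibitor. Of these, TP53INP1 had the largest effects, 2.48 ± 0.077 in HCT116, 1.73 ± 0.077 in SW48 and 1.90 ± 0.077 in RKO, followed by SESN1 (1.88, 1.69 and 1.44, each ± 0.070) SESN2 (1.55, 1.54 and 1.24, each ± 0.078) and DDIT4 (1.495, 1.257 and 1.128, each ± 0.079). PANK1, a kinase of coenzyme A synthesis, rose in HCT116 (0.82 ± 0.12). TXNIP, which inhibits thioredoxin, stood at -0.31 ± 0.11, 0.31 ± 0.11 and 0.12 ± 0.11 in HCT116, SW48 and RKO and did not pass in any of them.

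Genes of the wider antioxidant network were set beside the shares over all genes. In 9 further lists, 102 genes were measured. In HCT116, SW48 and RKO 2.94%, 1.96% and 0.98% of these were called, against 5.11%, 3.12% and 2.02% of all genes. At such shares a list of 13 to 16 genes may hold 0 calls without differing from other genes. At an unadjusted p under 0.05 in limma, 17, 13 and 16 of the 102 passed. These were 16.7%, 12.7% and 15.7%, against 19.6%, 16.2% and 16.9% of all genes. Whether these shares differ was not tested. In the mean of the lines 9 of the 102 passed (8.82%, against 10.8% of all genes), 3 higher and 6 lower, where 6.44% of all genes were called lower. Among 13 measured genes of glutathione peroxidases and glutathione synthesis, 0 were called in any line by limma. With quantile normalization 1 of these was called higher in HCT116. The synthesis genes GCLC and GCLM were not measured. GPX4, the lipid peroxide-reducing relative of GPX1, stood at 0.022 ± 0.065, -0.031 ± 0.065 and 0.018 ± 0.065 in HCT116, SW48 and RKO. Of the other relatives GPX2, GPX3, GPX6, GPX7 and GPX8 none passed in a line, and GPX8, a peroxidase of the endoplasmic reticulum, fell in the mean of the lines (-0.16 ± 0.037, adjusted p = 0.0235). Of 15 glutathione transferases and of 16 thioredoxin, peroxiredoxin, methionine sulfoxide reductase and catalase genes, 0 passed in any line; no superoxide dismutase gene was measured. MGST2, a microsomal glutathione transferase, rose in the mean of the lines (0.26 ± 0.067, adjusted p = 0.0374). TXNRD1, the cytosolic thioredoxin reductase, stood at 0.11, -0.084 and -0.0065, each ± 0.084.

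Of 10 pentose phosphate and 10 glycolysis genes measured, 0 passed in a line by limma, beside 5.11%, 3.12% and 2.02% of all genes called in HCT116, SW48 and RKO. Their medians lay between -0.037 and 0.045. In some alternative settings 1 pentose phosphate gene was called lower in HCT116 or in SW48, and with an intensity trend and robust prior 1 glycolysis gene was called lower in RKO. In the mean of the lines HK2, which phosphorylates glucose, fell (-0.25 ± 0.063, adjusted p = 0.0309), as did PRPS1, which makes the ribose donor of nucleotides (-0.15 ± 0.033, 0.0195). This is 1 of 10 genes in each list, where 6.44% of all genes were called lower in the mean. PFKFB3 and NQO1 have no named probe set here and are not analysed.

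Of 8 measured relatives of TP53I3 among quinone oxidoreductases and related reductases, 1 fell in HCT116 and 1 in SW48 (2.03% and 1.74% of all genes were called lower), PTGR3 (-0.23 ± 0.055, adjusted p = 0.0427) and PTGR1 (-0.28 ± 0.063, 0.0487), which reduce prostaglandin intermediates, and 0 rose. The other listed relatives, CRYZ and CRYZL1, were not measured, so these counts do not cover them. In the mean of the lines PTGR3 (-0.15 ± 0.032, adjusted p = 0.0158) and RTN4IP1, a mitochondrial reductase (-0.22 ± 0.052, 0.0239), were called lower, as were 6.44% of all genes. Each of the calls within a line was lost under 17 of 21 alternative settings (adjusted p up to 0.193 and 0.188).

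Among 16 measured selenoprotein and selenoprotein synthesis genes, relevant to the selenocysteine of GPX1, SEPSECS, which makes selenocysteinyl-tRNA, rose in HCT116 (0.45 ± 0.10, adjusted p = 0.0299; lost under 7 of 21 settings). In the mean of the lines SEPSECS rose (0.21 ± 0.058, adjusted p = 0.0440) and SCLY, selenocysteine lyase, fell (-0.19 ± 0.036, 0.01003). Of all genes, 3.08% were called higher in HCT116, 1.38% in SW48, 1.23% in RKO and 4.33% in the mean. In the mean 6.44% were called lower. The haem oxygenase HMOX1, 1 of 6 measured NRF2-linked genes, rose in SW48 (0.24 ± 0.054, adjusted p = 0.0453; lost under 17 of 21 settings) and RKO (0.29 ± 0.054, 0.0294; lost under 11) and in the mean of the lines (0.21 ± 0.031, 0.00232).

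Of 8 measured NADPH oxidase genes, DUOX1, which generates hydrogen peroxide at the cell surface, rose in HCT116, as did 3.08% of all genes. Its arrays read 7.28 and 7.11 with Nutlin-3a, against 6.49 and 6.63 in untreated cells (0.64 ± 0.078, adjusted p = 0.00135). In SW48 they read 5.14 and 5.06 with Nutlin-3a and 5.21 and 5.26 in untreated cells, and in RKO 5.13 and 5.17 with Nutlin-3a and 5.16 and 5.25 in untreated cells, near the table's median. Neither of those lines passed.

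**Figure D4:**
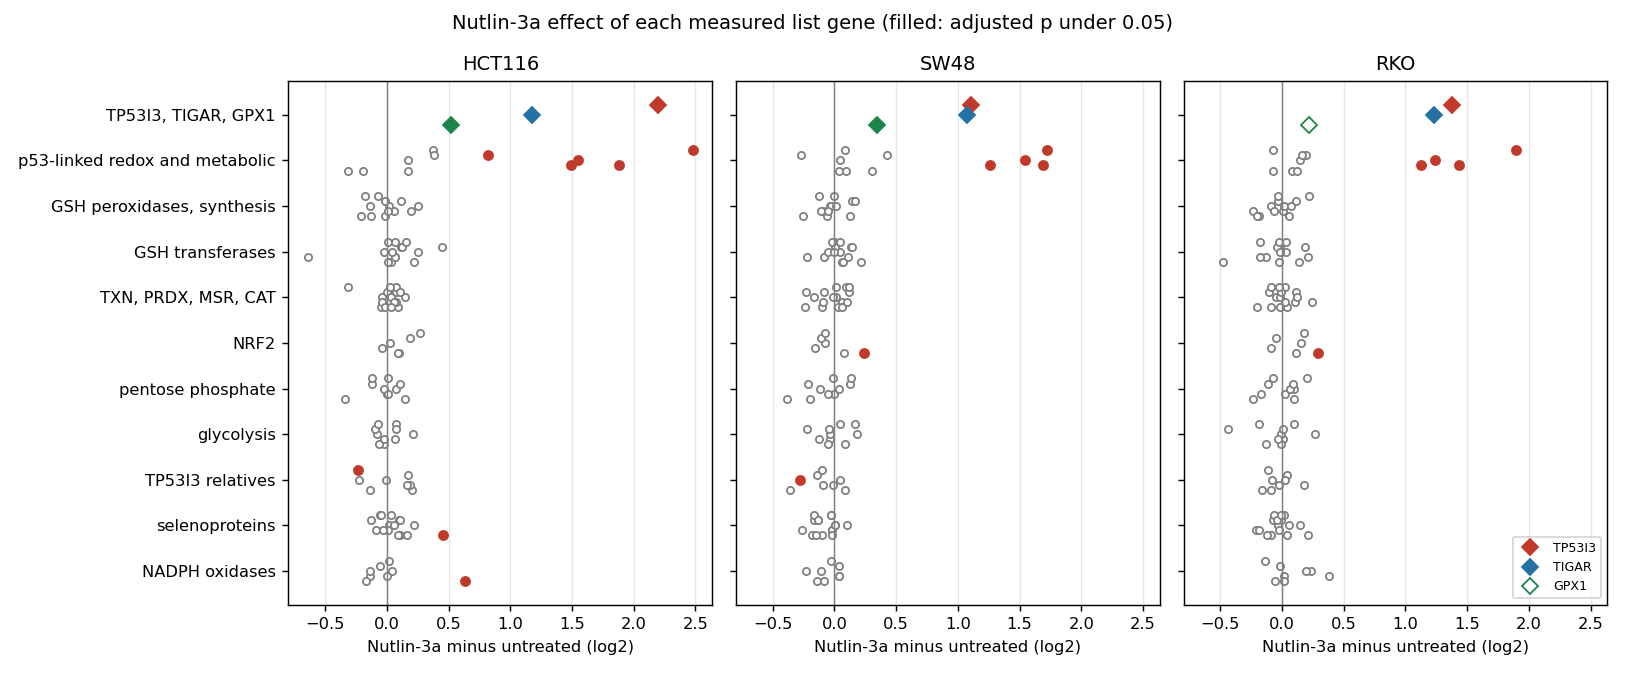
Nutlin-3a minus untreated on the log2 scale in HCT116, SW48 and RKO for TP53I3, TIGAR and GPX1 (diamonds) and for every measured gene of 10 lists (circles, spread vertically within a list); filled symbols have an adjusted p under 0.05. Outside the p53-linked list, filled circles number 3 in HCT116, 2 in SW48 and 1 in RKO.

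Genes with the most similar profiles were found by Pearson's correlation of log2 values over the 12 arrays, which share cell line and treatment, and are given as a description. Nearest to TP53I3 were RNF19B (r = 0.98), RPS27L (0.96), ACER2 (0.95), NADSYN1 (0.94) and FBXO22 (0.94). RNF19B, a ubiquitin ligase gene, had effects of 1.20, 0.72 and 1.00 in HCT116, SW48 and RKO, in the same order of lines as TP53I3. RNF19B was picked by its correlation with TP53I3, so this order is not independent of its choice. Nearest to TIGAR were TMEM68 (0.98), STAT3 (0.98), SESN2 (0.97), ZNF79 (0.97) and ZNF561 (0.96). Nearest to GPX1 were DDIT3 (0.95), SESN1 (0.94), CCDC90B (0.94), RPS27L (0.94) and ZNF440 (0.94). With each line's mean taken off, so that the treatment carries the profile, the nearest were PGAP1, ABHD4, TP53INP1, RNF19B and CMBL for TP53I3 (r between 0.98 and 0.99), ZNF79, E2F7, EFNB1, FBXO22 and MIR3189 for TIGAR (0.99 to 1.00), and MON2, PLK3, SARS1, DUSP14 and TRAF4 for GPX1 (0.97). PGAP1, a remodelling enzyme of GPI anchors, had effects of 0.94, 0.42 and 0.58, and EFNB1, an ephrin gene, 1.09, 1.07 and 1.08 in HCT116, SW48 and RKO. The effects of MON2 were 0.55, 0.27 and 0.25.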

How the data were processed

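Per the labels' protocols, total RNA was labelled and hybridised to 1 array per sample. The authors' deposited values are taken as log2 expression, 1 per probe set and array. Per the submitters' processing notes GCOS was used; no version is named, and how background, probe summary and scaling were handled is not stated. The log base was inferred from the range, 2.22 to 13.45. Column medians lay close together, at 4.97 to 5.05, which does not by itself show that the arrays share a common scale. Of 37270 probe sets, 14530 carry 1 symbol in the platform annotation and 22740 none; all 14530 gene numbers matched RefSeq (GRCh38.p14). For 395 genes with several probe sets the one with the highest mean was used. No filter on dim signal was applied, no detection calls were used, and the number of arrays limits precision. Columns not used numbered 0.

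The linear models used limma 3.58.1 under R 4.3.3 (6 residual and 3.71 prior degrees of freedom), Benjamini-Hochberg adjusted over 14118 genes, and tested on simulated data. The genes, lists and tests were chosen with earlier results of these data known. Genes named are TP53I3, TIGAR and GPX1, up to 3 called genes per list and line, a few set in advance (among them TXNRD1, GPX4, PFKFB3 and NQO1) and the 5 nearest profiles; DDIT4, PANK1, TXNIP, GPX8, HK2, PRPS1, SCLY, MGST2, RTN4IP1, the other GPX genes and the loci's neighbours were added after their values were seen, as were the contrasts of treated levels and the differences of effect of list genes. Alternatives were 2 other scalings, an intensity trend with a robust prior, all probe sets, a dim filter, averaged probe sets, separate fits, a stricter threshold, a replicate block and leaving out each array. Probe set coordinates are not given, so the coordinates shown are RefSeq's. The arrays carry no batch or scan date here, and any culture batch that follows the cell line cannot be told apart from it.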

Additional observations from a re-analysis of the deposited data

Results flagged for a closer look

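TP53I3 responded unequally in the lines by a test of the difference itself. The Nutlin-3a effect in SW48 minus that in HCT116 was -1.09 ± 0.13 on the log2 scale (limma, adjusted p = 0.0186), and the effect in RKO minus that in HCT116 was -0.82 ± 0.13 (adjusted p = 0.0499). The RKO call was lost in all 12 fits that left out 1 array and in 6 of 9 other settings. The SW48 call was lost in 5 of those 12 fits, at a threshold of 0.01, in separate fits (0.0654) and with a replicate block (0.0744). TP53I3 rose in 6 of 6 treated arrays relative to its own line, and the untreated level of HCT116 was the lowest of all groups.

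Among 13 named list genes, whose 39 differences of effect were examined after their values were seen, 2 genes passed, where 0.212%, 0.248% and 0.361% of all genes were called for SW48 minus HCT116, RKO minus HCT116 and RKO minus SW48. DUOX1, a hydrogen peroxide-generating oxidase gene, differed by -0.77 ± 0.11 for SW48 minus HCT116 (adjusted p = 0.0284) and -0.69 ± 0.11 for RKO minus HCT116 (0.0475). It was named because its effect was called in HCT116 and in neither other line, so this difference is not independent of its choice. Its values in SW48 and RKO lay near the median of the table, and these calls were lost under 14 and 16 of 21 alternative settings (adjusted p up to 0.205 and 0.211). TP53INP1, the p53 cofactor gene, differed by -0.76 ± 0.11 for SW48 minus HCT116 (adjusted p = 0.0285), lost under 15 of 21 settings (up to 0.168); for RKO minus HCT116 the difference was -0.59 ± 0.11 and did not pass (0.0804).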

How the results depend on the processing

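The calls of TP53I3 and TIGAR in each line and in the mean, of GPX1 in the mean, and of TP53I3 and TIGAR between untreated lines kept direction and side of the threshold under all alternatives run. GPX1 in HCT116 (0.52) lost its call when HCT116 was fitted alone (adjusted p = 0.0556). GPX1 in SW48 was 0.32 (0.315) with each array centred on its median and 0.34 with all probe sets tested, with SW48 fitted alone, at a threshold of 0.01 and with a replicate block, and lost its call in each (adjusted p from 0.0348, above the stricter threshold, to 0.144); without 1 array it ranged from 0.29 (0.2948) to 0.39. The TP53I3 effect in RKO minus that in HCT116 lost its call with quantile normalization (-0.72) and, at -0.82, with all probe sets, averaged probe sets, separate fits, a threshold of 0.01 and a replicate block (adjusted p up to 0.195), and ranged from -0.90 to -0.73 without 1 array. The effect in SW48 minus that in HCT116 (-1.09) lost its call with separate fits (adjusted p = 0.0654), the stricter threshold and a replicate block (0.0744), and ranged from -1.21 to -0.98 without 1 array. GPX1 in untreated RKO minus untreated HCT116 lost its call with quantile normalization (0.16), and at 0.24 with all probe sets and the stricter threshold, ranging from 0.22 to 0.26 without 1 array; untreated RKO minus untreated SW48 (0.17) gained one with an intensity trend and robust prior. TIGAR in treated SW48 minus treated HCT116 gained a call with median centring (-0.24), with the trend and prior and with dim genes left out (-0.20), and without either untreated SW48 array, and ranged from -0.22 to -0.18 without 1 array. Signs changed, with no call on either side, for the TIGAR effect in RKO minus that in HCT116 (-0.0022 with median centring; -0.0033 to 0.11 without 1 array), GPX1 in treated RKO minus treated SW48 (-0.00061 with quantile normalization; -0.0035 to 0.093 without 1 array), the TIGAR effect in SW48 minus that in HCT116 (-0.22 to 0.0099), untreated TIGAR in SW48 minus HCT116 (-0.21 to 0.016), treated TP53I3 in SW48 minus HCT116 (-0.19 to 0.039) and treated GPX1 in RKO minus HCT116 (-0.15 to 0.019), each without 1 array. The causes were not tested.

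Replicate numbers did not pair the samples: same-numbered deviations correlated at 0.055, -0.039 and -0.055 in HCT116, SW48 and RKO. With the replicate block the calls named above were lost and no other call of the 3 genes changed. Leaving out an array leaves 1 group with a lone array, assumed to vary like the others. Genes called higher numbered 435 in HCT116 (150 to 685 over the alternatives), 195 in SW48 (75 to 301) and 173 in RKO (31 to 311), and lower 286 (58 to 543), 246 (40 to 569) and 112 (0 to 449). In HCT116 60.3% of calls were higher, against 72.3% with median centring (469 higher and 180 lower). The replicate block gave 248 higher and 109 lower in HCT116, 115 and 103 in SW48, and 69 and 18 in RKO. Differences of effect from HCT116 numbered 12 higher and 18 lower for SW48, with 0 and 0 under the replicate block, and 12 and 23 for RKO, with 0 and 0 in separate fits.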
